A study of Mus musculus with 12 samples.

Results

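The cell-cycle kinase Cdk1, its 3 B-type cyclins and 6 enzymes that switch it off or on were followed in mouse oocytes with and without Rnaseh1. The genes were Cdk1, Ccnb1, Ccnb2, Ccnb3, the inhibitory kinases Wee1, Wee2 and Pkmyt1, and the phosphatases Cdc25a, Cdc25b and Cdc25c. They were taken by symbol and make up 10 of 25162 genes in the table, each on 1 line. KO oocytes carried an oocyte deletion of Rnaseh1 (headed oo-/-) and WT oocytes carried the floxed allele undeleted (headed fl/fl), so the controls were floxed rather than free of the allele. The Cre driver, the deleted exons, the strain and the age of the animals were not given in the sources used here. Each genotype was sampled at NGO, GO and FGO, usual abbreviations for oocytes before growth, in growth and at full size. There were 12 labelled samples of 10 oocytes, 2 for each genotype at each stage. The deposited values are FPKM (fragments scaled to transcript length and library size, then adjusted by the authors to ERCC spike-in RNA) in 6 columns, 1 per genotype and stage, and whether a column is a mean, a pool or 1 of the 2 samples is not given. No value below therefore has a replicate error, no difference has a test, and the reads behind a value are unknown.

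An oocyte stays arrested in prophase of the first meiotic division while it grows, with Cdk1 held inactive. Cdk1 works only when bound to a cyclin, chiefly cyclin B1. The Wee1-type kinases add inhibitory phosphates to bound Cdk1, and the Cdc25 phosphatases take them off. In mouse oocytes Wee2 (also called Wee1B) is the germ-cell form that helps to keep the arrest, and Cdc25b is needed to leave it. Growing oocytes build up RNA for these proteins in advance, and fully grown ones stop transcribing. Much of the control then lies in translation and phosphorylation, which RNA levels do not show.

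RefSeq promoters (GRCm38.p6, the assembly of mm10) were matched for 7 of the genes, the exceptions being Wee1, Pkmyt1 and Cdc25c. Those of Cdk1 and its 2 main mitotic-type cyclins are shown because they share a spaced pair of the CCAAT box, the motif bound by the factor NF-Y, and that of Cdc25a because its pair is spaced differently. The 250 bases upstream of the annotated start are printed on the gene's strand, with CCAAT, or ATTGG where the box lies on the other strand, in capitals. They lie at chr10:69352913-69353162 for Cdk1, chr13:100786487-100786736 for Ccnb1 and chr9:70421555-70421804 for Ccnb2, all on the minus strand, and at chr9:109875329-109875578 on the plus strand for Cdc25a.
Cdk1: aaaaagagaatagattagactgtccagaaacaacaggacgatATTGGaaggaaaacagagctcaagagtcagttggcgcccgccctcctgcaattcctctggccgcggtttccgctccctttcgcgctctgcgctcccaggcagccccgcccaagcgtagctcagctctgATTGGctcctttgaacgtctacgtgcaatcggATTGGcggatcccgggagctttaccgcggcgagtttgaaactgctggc
Ccnb1: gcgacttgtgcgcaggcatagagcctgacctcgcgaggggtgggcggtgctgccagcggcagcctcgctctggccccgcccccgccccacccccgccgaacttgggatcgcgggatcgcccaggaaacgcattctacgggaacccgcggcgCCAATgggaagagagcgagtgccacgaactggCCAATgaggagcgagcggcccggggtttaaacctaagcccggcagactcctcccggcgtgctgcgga
Ccnb2: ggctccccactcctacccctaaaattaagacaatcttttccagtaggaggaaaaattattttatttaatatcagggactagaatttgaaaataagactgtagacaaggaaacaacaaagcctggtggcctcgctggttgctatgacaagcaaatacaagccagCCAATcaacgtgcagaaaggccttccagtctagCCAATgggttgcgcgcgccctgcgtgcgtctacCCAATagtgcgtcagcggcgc
Cdc25a: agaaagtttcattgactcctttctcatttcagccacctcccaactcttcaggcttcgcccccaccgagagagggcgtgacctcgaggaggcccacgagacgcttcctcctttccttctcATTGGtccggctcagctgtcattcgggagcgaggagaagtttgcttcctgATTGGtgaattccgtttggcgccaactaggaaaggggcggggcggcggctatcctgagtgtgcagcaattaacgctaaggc

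CCAAT was searched on both strands. Ccnb1 held it at 99 and 67 bases before the start, that is 32 bases apart. Ccnb2 held 3 boxes, each 33 bases from the next, and Cdk1 held 3, the nearer pair 32 bases apart. In Cdc25a the pair was 50 bases apart. Wee2 and Cdc25b had 1 box each and Ccnb3 had 0. Of the promoters of 8169 compared genes, 38% held a box, 14.4% held 2 or more and 1.76% held a pair in one orientation 31 to 34 bases apart. That spacing window was chosen after these promoters had been read. The outermost GENCODE starts of Ccnb1, Cdk1 and Wee2 lie upstream of the RefSeq starts used here. That of Ccnb1, at 100786570, falls between its 2 boxes, so the box at 67 bases lies inside the GENCODE gene. For Wee2 the whole window (chr6:40442613-40442862, plus strand) lies inside the GENCODE gene, which starts at 40439088, so its box count belongs to the RefSeq start alone. A match is a description of letters and shows no binding.

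**Figure D1:**
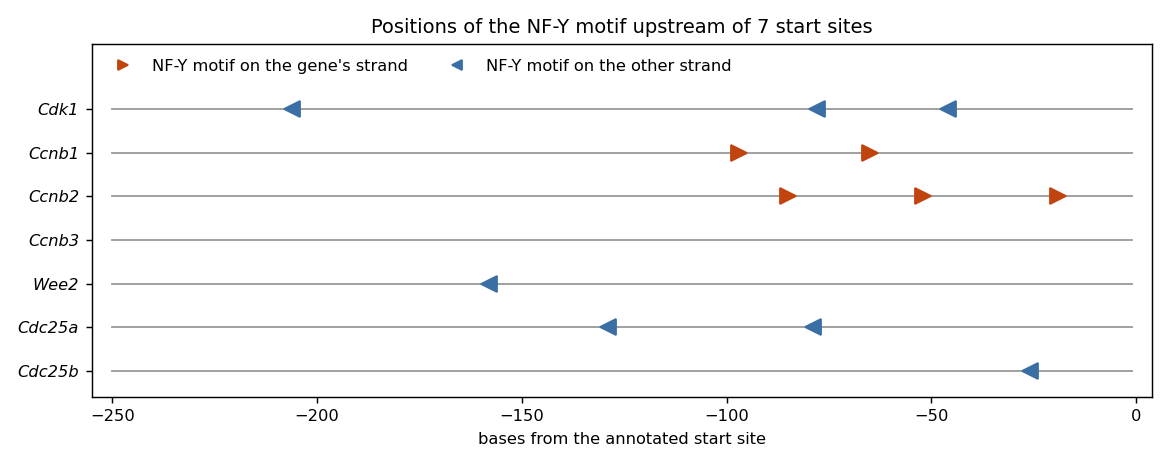
Positions of the NF-Y motif in the 250 bases upstream of the annotated start of 7 genes. The x axis is bases from the start, triangles pointing right are motifs on the gene's strand and triangles pointing left are on the other strand. Cdk1, Ccnb1 and Ccnb2 each show neighbours 32 or 33 bases apart, and Cdc25a a pair 50 bases apart.

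Rnaseh1, which encodes a nuclease that removes RNA paired with DNA, stood at 0.931, 3.10 and 8.02 FPKM in KO oocytes at NGO, GO and FGO, against 8.61, 27.8 and 29.1 FPKM in WT. KO oocytes held 10.8%, 11.2% and 27.6% of the WT value as deposited, and 12.3%, 11.8% and 16.0% once the columns were set to a common level (rescaled, as described next), so the higher FGO figure went largely with the scale. Column sums ran from 132093 to 729690 FPKM in KO and from 156837 to 460906 in WT. Differences were taken on the log2(FPKM + 1) scale, which understates those of low genes, and a gene is called at 2-fold, a difference of 1 or more. They were computed as deposited and again rescaled, after dividing each column by the factor that sets its median gene level with the other columns. The comparison took in 10110 genes that averaged 1 FPKM or more, all 10 genes of the set among them. The median gene differed between KO and WT by -0.11 at NGO, -0.09 at GO and 0.72 at FGO as deposited, so most genes were higher in KO FGO. Rescaled, it differed by 0.01, -0.03 and 0.02. In values per tube, fewer intact oocytes and less RNA per oocyte cannot be told apart. All 10 oocyte markers, Zp3, Gdf9 and Figla among them, stood above 1 FPKM in every column, with sums of 6041 to 18017 FPKM in KO and 6925 to 11658 in WT.

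Rescaled and relative to the median gene, the inhibitory kinases and Cdc25b were higher in KO at every stage. Cdk1, Ccnb2, Ccnb3 and Cdc25a were lower. These were 4 and 4 of the 10 genes. Among all compared genes, 25.2% lay above the median gene at all 3 stages and 25.4% below it at all 3. At NGO the rescaled differences of Cdk1 (-0.03), Ccnb3 (-0.03) and Cdc25a (-0.02) lay close to that of the median gene (0.01). As deposited, Ccnb3 at NGO (-0.05) lay above the median gene (-0.11). Few KO to WT differences of the set reached 2-fold. Wee1 at FGO did so as deposited and rescaled, while Cdc25a at GO and Wee2 and Ccnb1 at FGO did so only as deposited.

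**Figure D2:**
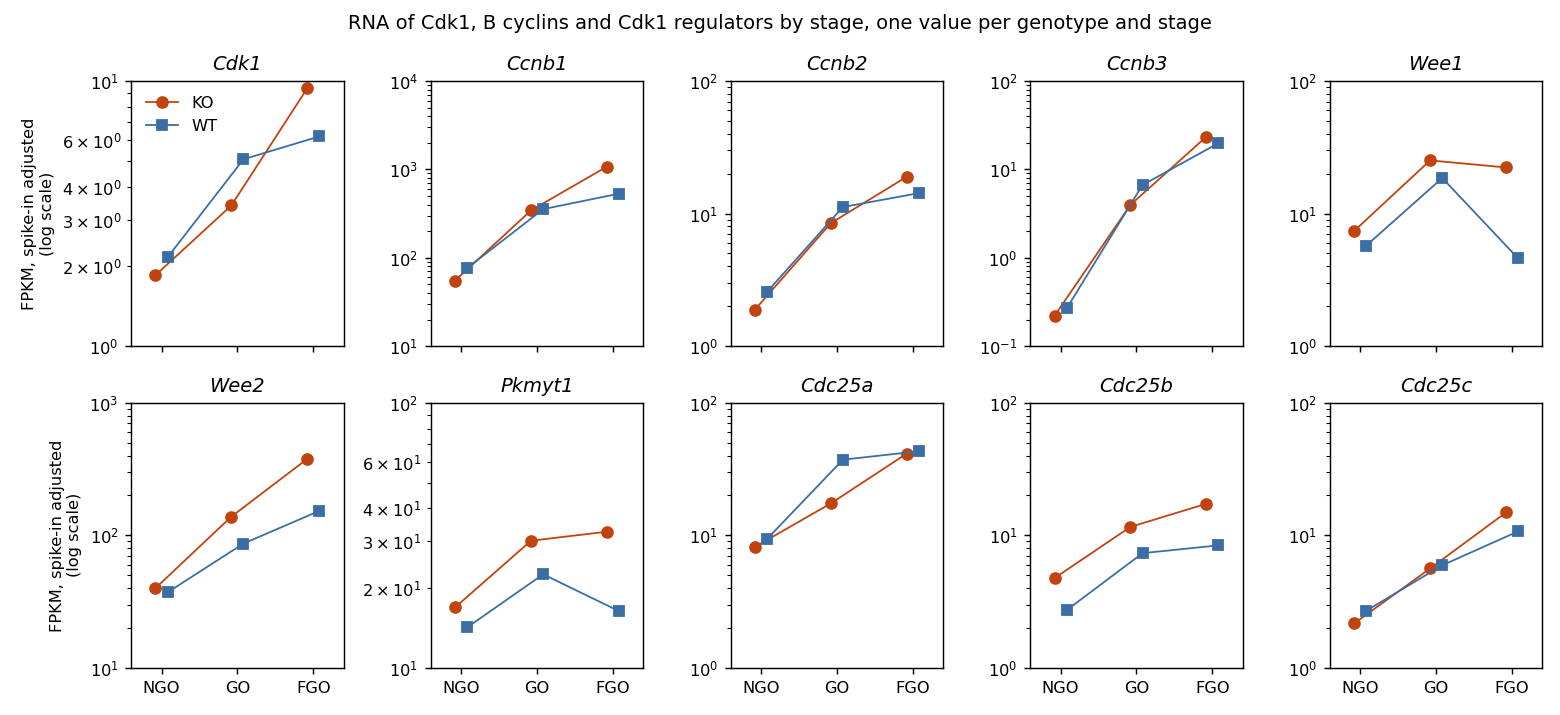
FPKM (log axis) of the 10 genes at NGO, GO and FGO in KO (circles) and WT (squares), 1 value per genotype and stage with no replicate error. Wee1 stood at 22.3 FPKM in KO FGO and 4.59 in WT FGO, and Cdc25a at 17.4 in KO GO and 37.2 in WT GO.

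Cdk1, the kinase itself (chromosome 10, 69335146 to 69352938), was among the lowest of the set. It stood at 1.85, 3.39 and 9.38 FPKM in KO at NGO, GO and FGO, against 2.16, 5.07 and 6.18 FPKM in WT. Between 25.4% and 39.8% of the compared genes lay below it in the 6 columns. The KO value was the lower one at NGO and GO and the higher one at FGO. The log2 differences were -0.15, -0.47 and 0.53 as deposited and -0.03, -0.39 and -0.15 rescaled, so the direction at FGO depends on the scale.

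Ccnb1, cyclin B1 (chromosome 13, 100778650 to 100786570), was the most abundant of the 10 in every column. It stood at 55.2, 344 and 1076 FPKM in KO and at 76.5, 355 and 532 FPKM in WT. In KO FGO it ranked 91st from the top of the compared genes and in WT FGO 115th. The genotypes stood close together at GO. The log2 difference was -0.46 at NGO and -0.05 at GO, and 1.02 at FGO is just past 2-fold. Rescaled it was -0.29, 0.03 and 0.23. The annotation holds 6 processed pseudogenes with at least 86.2% identity to the Ccnb1 transcript over at least 26.0% of its length, Ccnb1-ps at 99.2%. They were not analysed here, and reads could be split among them, so the level of Ccnb1 is uncertain. No other gene of the set had a copy of that kind.

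The other 2 cyclins were far lower per transcript length. Ccnb2, which binds Cdk1 and can stand in for cyclin B1 in mouse oocytes, stood at 1.88, 8.45 and 18.9 FPKM in KO and at 2.56, 11.2 and 14.3 FPKM in WT. Ccnb3, which acts in exit from the first meiotic metaphase in mouse oocytes, stood at 0.220, 3.96 and 23.4 FPKM in KO and at 0.267, 6.66 and 19.8 FPKM in WT. Both had KO below WT at NGO and GO and above it at FGO as deposited. Rescaled, the KO value was below WT at each stage, with differences of -0.22, -0.29 and -0.34 for Ccnb2 and of -0.03, -0.54 and -0.51 for Ccnb3. At FGO 946 of the compared genes had a smaller rescaled difference than Ccnb3. Ccnb1 made up 96.3%, 96.5% and 96.2% of the summed B-cyclin FPKM in KO and 96.4%, 95.2% and 94.0% in WT. The Ccnb3 share grew with stage, at 0.384%, 1.11% and 2.10% in KO and 0.336%, 1.79% and 3.50% in WT.

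Wee1, the kinase that somatic cells use to hold Cdk1 off (chromosome 7, 110122046 to 110143286), showed the largest difference of the set. It stood at 7.40, 25.2 and 22.3 FPKM in KO at NGO, GO and FGO, against 5.74, 18.5 and 4.59 FPKM in WT. The genotypes rose alike to GO, with KO already the higher one at NGO and GO. They parted further at FGO, where KO held 4.86 times the WT value, or 2.81 times after rescaling. The log2 difference at FGO was 2.06 as deposited and 1.27 rescaled, and 57 of 10110 genes had a larger rescaled one. At NGO and GO it was 0.32 and 0.42 as deposited and 0.51 and 0.49 rescaled, with 309 and 1144 genes above it after rescaling. In WT FGO Wee1 was the lowest of the 10 genes, and in KO FGO it held the sixth place. An antisense gene, 1600010M07Rik, spans Wee1 and is listed at 0 in every column. Libraries of this type do not mark strand, so the listed 0 does not show that antisense reads were absent from the Wee1 values.

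Wee2, the oocyte form (chromosome 6, 40439088 to 40466813), was the second most abundant gene of the set in every column. It stood at 39.9, 138 and 377 FPKM in KO and at 37.2, 86.8 and 153 FPKM in WT. KO was the higher one at each stage, by little at NGO. The KO to WT ratio was 1.07, 1.60 and 2.47 as deposited and 1.22, 1.68 and 1.43 rescaled. The log2 difference was 0.67 at GO and 1.30 at FGO as deposited, and 0.74 and 0.51 rescaled. At GO 9700 of the compared genes had a smaller rescaled difference.

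Pkmyt1, the membrane-bound kinase of the group known as Myt1 (chromosome 17, 23726336 to 23736735), stood at 16.9, 30.2 and 32.6 FPKM in KO and at 14.2, 22.6 and 16.4 FPKM in WT. As for Wee2, KO was the higher one at each stage. The log2 difference was 0.24, 0.40 and 0.95 as deposited and 0.42, 0.47 and 0.19 rescaled. Paqr4 runs towards it on the opposite strand and shares 314 nt with its main transcript, 15.4% of the length. Libraries of this transposase type do not mark strand, so reads there cannot be told apart. Paqr4 stood at 18.6, 45.3 and 45.5 FPKM in KO and at 18.4, 29.2 and 17.4 FPKM in WT, a KO to WT ratio of 1.01, 1.55 and 2.62 beside 1.19, 1.34 and 1.99 for Pkmyt1. The part of Paqr4 reads in the Pkmyt1 values was not tested.

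Among the phosphatases, Cdc25a went the other way from the kinases. Cdc25a, which acts on Cdk1 and Cdk2 (chromosome 9, 109875579 to 109893895), stood at 8.17, 17.4 and 41.4 FPKM in KO, against 9.38, 37.2 and 43.1 FPKM in WT. KO GO held 46.8% of the WT GO value. The log2 difference at GO was -1.05 as deposited and -0.97 rescaled, where it no longer reached 2-fold. Only 152 of 10110 genes had a smaller rescaled difference at GO. At FGO the values were nearly equal as deposited (-0.06), and rescaled the difference was -0.82, with 227 genes below it.

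Cdc25b, the form whose loss leaves mouse oocytes arrested (chromosome 2, 131186949 to 131198497), stood at 4.76, 11.6 and 17.3 FPKM in KO and at 2.73, 7.34 and 8.41 FPKM in WT. KO was higher at every stage, by a log2 difference of 0.63, 0.59 and 0.96 as deposited and 0.87, 0.65 and 0.22 rescaled. The NGO value lay above that of 10078 of the compared genes, although it stayed under 2-fold. Cdc25c, which activates Cdk1 at mitotic entry, stood at 2.16, 5.63 and 14.9 FPKM in KO and at 2.70, 5.95 and 10.7 FPKM in WT. Its rescaled differences were small, at -0.11, -0.0032 and -0.28.

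**Figure D3:**
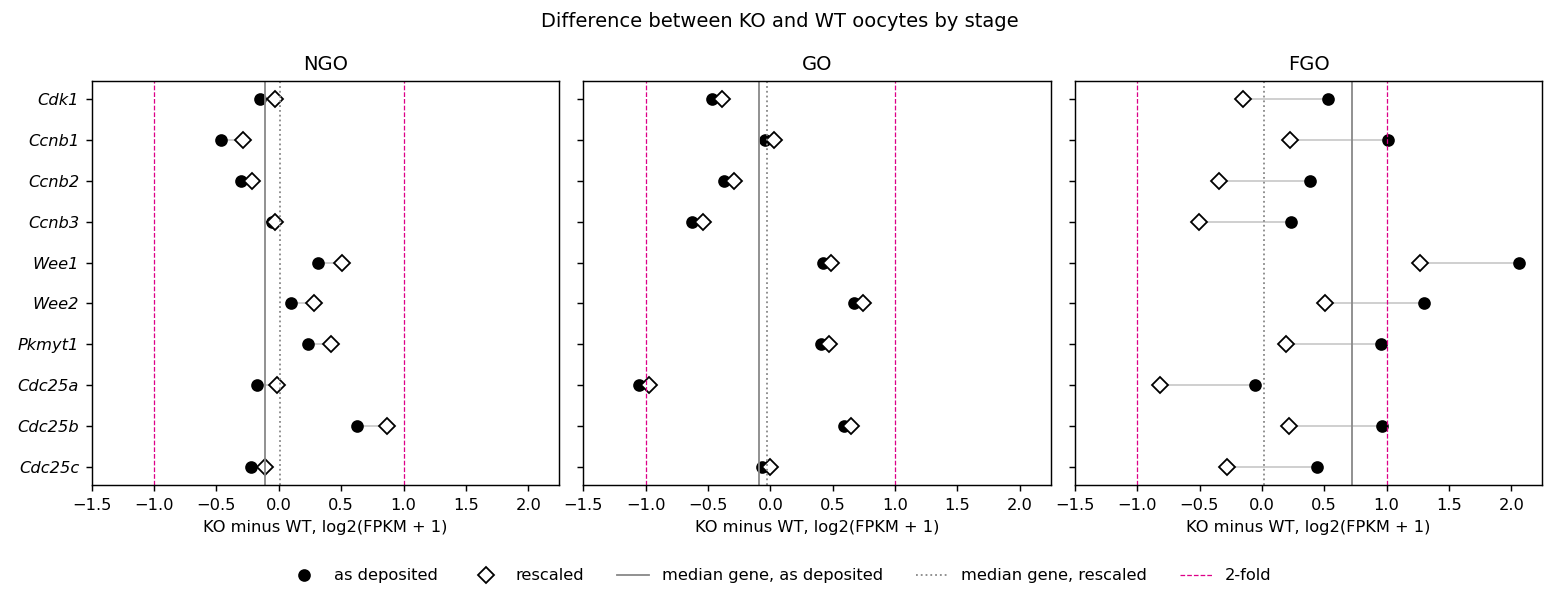
KO minus WT difference of each gene on the log2(FPKM + 1) scale at NGO, GO and FGO, as deposited (filled circles) and rescaled (open diamonds), with the median of the 10110 compared genes as grey lines and 2-fold as dashed lines. Wee1 at FGO (2.06 as deposited, 1.27 rescaled) is past 2-fold on both scales, and Cdc25a at GO (-1.05 and -0.97) only as deposited.

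The counts of calls are set beside the share of all genes called. At NGO 0 of the 10 were called higher and 0 lower, where 0.0297% and 0.326% of compared genes were called (rescaled 0 and 0, with 0.129% and 0.356%). At GO 0 were called higher and 1 lower, with 0.950% and 2.03% of all genes. Rescaled, the numbers at GO were 0 and 0, with 1.05% and 1.28%. At FGO 3 were called higher and 0 lower as deposited, where 25.8% and 0.158% of all genes were, so 3 of 10 is near the background. Rescaled, Wee1 was the 1 call, with 1.68% of genes called higher and 0.940% lower. The median of the 10 differences was -0.10, -0.06 and 0.74 at the 3 stages as deposited, beside -0.11, -0.09 and 0.72 for all genes. As a set they lay near the median gene, with genes spread to both sides of it.

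Ratios within a column do not depend on its scale. The summed FPKM of Wee1, Wee2 and Pkmyt1 was 64.3, 194 and 432 in KO and 57.1, 128 and 174 in WT. That of the 3 Cdc25 genes was 15.1, 34.6 and 73.6 in KO and 14.8, 50.5 and 62.3 in WT. The kinase sum was thus 4.26, 5.60 and 5.88 times the phosphatase sum in KO, against 3.86, 2.53 and 2.79 times in WT. The KO ratio was 1.10, 2.21 and 2.10 times that of WT. At GO the contrast rested on Cdc25a, since without it the KO ratio was 1.17 times the WT ratio (and 0.882 times at NGO). Without Wee2 it was 1.97 times. At FGO it was 1.48 times without Cdc25a and 2.22 times without Wee2. These are RNA ratios with no replicate error and say nothing of kinase or phosphatase activity.

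The makeup of both families also differed. Cdc25a gave 54.1%, 50.3% and 56.2% of the Cdc25 sum in KO, against 63.3%, 73.7% and 69.3% in WT. Cdc25b gave 31.5%, 33.5% and 23.5% in KO and 18.4%, 14.5% and 13.5% in WT. Among the kinases Wee2 took a growing share in both genotypes, with 62.1%, 71.4% and 87.3% in KO and 65.1%, 67.9% and 88.0% in WT. Wee1 stood at 5.90% of the Wee2 value in KO FGO and at 3.0% in WT FGO. Before that it was at 18.5% and 18.2% in KO NGO and GO and at 15.4% and 21.4% in WT NGO and GO. The summed B cyclins stood at 30.9, 105 and 119 times Cdk1 in KO and at 36.7, 73.5 and 91.5 times in WT.

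**Figure D4:**
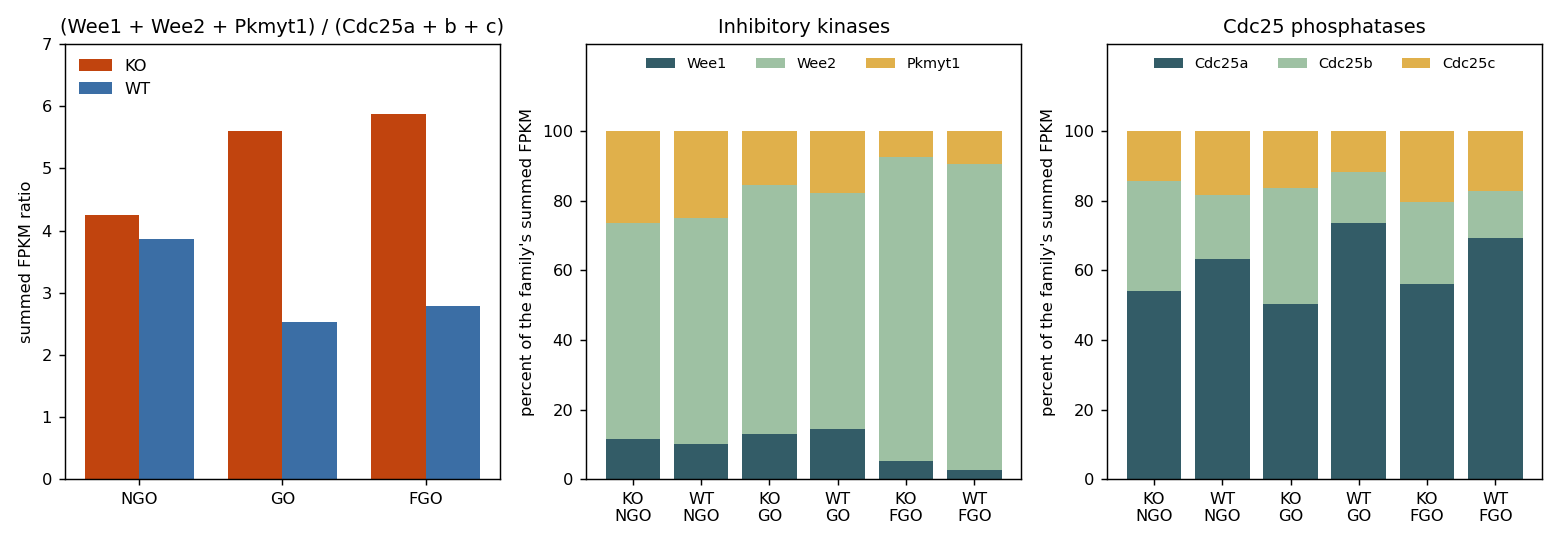
Left, the summed FPKM of Wee1, Wee2 and Pkmyt1 divided by that of Cdc25a, Cdc25b and Cdc25c in KO and WT at each stage. Middle and right, the percent of each family's summed FPKM held by each gene. The ratio is 5.60 in KO GO and 2.53 in WT GO, and Cdc25a holds 50.3% of its family in KO GO and 73.7% in WT GO.

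Most of the set gained RNA in the first step of growth, as most genes did. From NGO to GO, 8 of 10 genes rose at least 2-fold in KO and 7 of 10 in WT as deposited, beside 57.6% and 54.8% of all genes. In each genotype 0 fell, with 0.0890% of genes lower in KO and 0.129% in WT. Since the median gene rose by 1.10 in KO and 1.06 in WT, the rescaled calls show which genes rose at least 2-fold beyond it. These were Ccnb1 (1.20) and Ccnb3 (1.51) in KO and Ccnb3 (2.02) in WT, where Ccnb1 stood at 0.88. Among all genes 5.37% rose and 2.59% fell at least 2-fold in KO after rescaling, against 6.06% and 3.27% in WT. Cdc25a stood apart between genotypes in this step, with 0.63 in WT, above 8781 genes, and -0.32 in KO.

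From GO to FGO, 7 of 10 rose at least 2-fold in KO and 1 of 10, Ccnb3, in WT as deposited, beside 39.0% and 6.50% of all genes. In KO 0 fell at least 2-fold, beside 0.514% of all genes, and in WT 1 did, beside 9.22%. The WT gene that did so was Wee1, to 4.59 FPKM at FGO against 18.5 at GO, a log2 step of -1.81. In KO its step was -0.17. Rescaled, the Wee1 steps were -0.99 in KO and -1.77 in WT, with 145 genes below it in WT. After rescaling, Ccnb3 was the 1 gene that rose at least 2-fold in each genotype, by 1.42 in KO and 1.39 in WT. Among all genes 6.42% and 5.78% did so. Rescaled falls of at least 2-fold covered 3.66% of genes in KO and 8.33% in WT.

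The shallower step of Wee1 in KO was shared by most genes that fell in WT. Of the 842 genes at least 2-fold lower in WT FGO than in WT GO after rescaling, 801 (95.1%) had a higher step in KO. The median step of these genes was -0.83 in KO and -1.35 in WT. They were picked by a low WT step, which by itself makes a higher KO step likelier. Their median KO to WT difference at FGO was 0.54 rescaled, and 48 of them exceeded the 1.27 of Wee1. The WT FGO values that picked these genes also enter this difference, so the choice itself makes a positive one likelier.

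**Figure D5:**
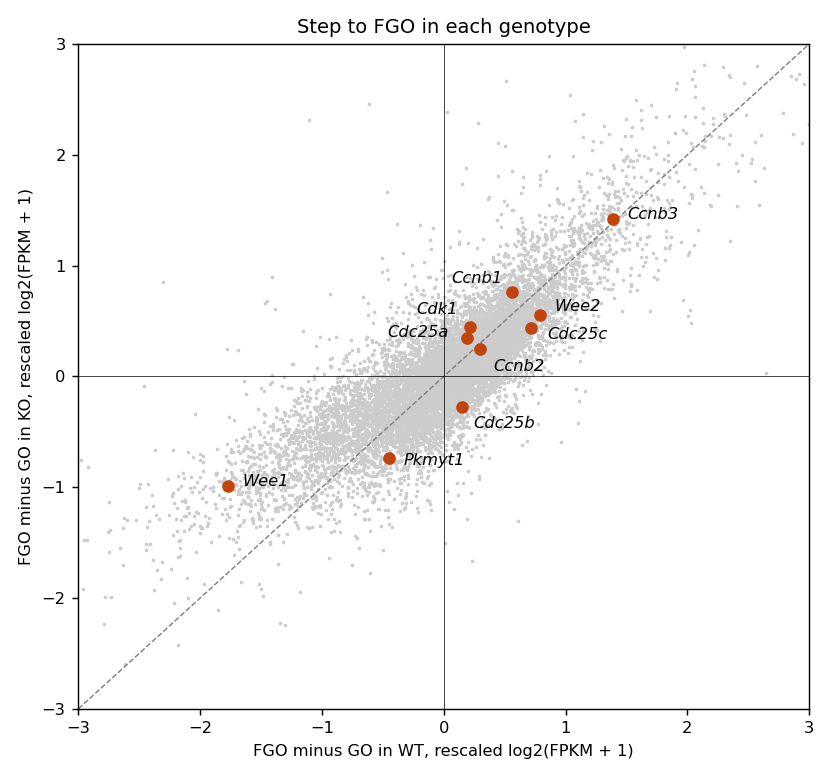
Step from GO to FGO on the rescaled log2(FPKM + 1) scale in WT (x axis) and KO (y axis) for the compared genes (grey, 34 outside the axes) and the 10 genes of the set (filled circles). The dashed line marks equal steps. Wee1 is at -0.99 in KO and -1.77 in WT, and most grey points on the left lie above the line.

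How far the KO to WT difference moved between stages was taken as well. From NGO to GO the move was -0.96 rescaled for Cdc25a, with 141 of 10110 genes below, and 0.46 for Wee2. From GO to FGO it was 0.78 for Wee1, with 440 genes above, and -0.42 for Cdc25b. As deposited, the later change was 1.64 for Wee1 and 1.06 for Ccnb1, beside 0.80 for the median gene. The differences of neighbouring stages share the GO columns, so a low value there moves both changes.

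Genes whose profile over the 6 columns lay nearest to that of a member were sought among 6310 named genes that averaged 5 FPKM or more, by Euclidean distance of the rescaled log2 values centred on their mean. For Wee1 they were Cstf2 (distance 0.24), Mdm1 (0.30) and Map3k11 (0.32). Cstf2, a subunit of the 3' end cleavage machinery, stood at 6.20, 19.6 and 16.4 FPKM in KO and at 5.02, 15.4 and 4.18 FPKM in WT. As for Wee1, WT FGO was the lowest of its columns and KO GO the highest. Mdm1, a microtubule-binding protein of centrioles, stood at 22.0 FPKM in KO FGO and 5.28 in WT FGO, and Map3k11, a kinase upstream of JNK, at 23.1 and 6.84. For Cdc25a the nearest were Fhod3 (0.14), an actin-assembly formin, Hnrnpul2 (0.16) and Wdr82 (0.18). Fhod3 stood at 16.8 FPKM in KO GO and 32.5 in WT GO. Wdr82, a subunit of H3K4 methyltransferase complexes, stood at 23.4 FPKM in KO GO and 43.0 in WT GO. For Ccnb1 they were Tmprss11a (0.17), Trim13 (0.20), a ubiquitin ligase, and Dennd6a (0.21). Trim13 stood at 595 FPKM in KO FGO and 309 in WT FGO. For Cdk1 they were Rpa2 (0.11), a subunit of the single-stranded DNA binding complex RPA, Eif3h (0.13), a translation initiation factor subunit, and Inpp5a (0.13). Rpa2 was the more abundant, at 219 FPKM in KO FGO and 155 in WT FGO. The member profiles differed in length, that is in distance from a flat profile. It was 0.46 for Cdk1, 0.99 for Cdc25a, 1.73 for Ccnb1 and 1.77 for Wee1. Distances should therefore not be ranked across members, since a nearly flat profile lies near many others. With 6 values a profile, a short distance is a description.

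Other genes around Cdk1 were taken from a list of 43 (other cyclins and Cdks, Cdk inhibitors, the Greatwall and PP2A branch, 14-3-3 proteins, checkpoint kinases and regulators of the anaphase-promoting complex), of which 38 were compared. At NGO 0 were called in either direction on both scales, beside 0.0297% of all genes higher and 0.326% lower as deposited. Cks1b, a small Cdk-binding subunit, stood at 11.04 FPKM in KO and 20.5 in WT, and Arpp19, a PP2A inhibitor that Greatwall activates, at 8.38 in KO and 13.5 in WT. Ppp2r1a, the PP2A scaffold, stood at 51.8 FPKM in KO and 42.7 in WT, and Ccnd3, a D-type cyclin, at 13.2 in KO and 10.8 in WT. At GO 1 was called higher and 0 lower as deposited, beside 0.950% and 2.03% of all genes, and 2 and 0 rescaled, beside 1.05% and 1.28%. Ccnd3 was the call as deposited, at 24.3 FPKM in KO and 10.4 in WT, and Plk1, the kinase that activates Cdc25 and marks Wee1 for decay, joined it after rescaling, at 83.7 in KO and 41.5 in WT (1.07). The PP2A subunits Ppp2r1a (104 FPKM in KO, 54.6 in WT) and Ppp2r2a (15.9 and 8.65) came next. PP2A keeps the Cdk1 switch off in general, in part by removing phosphates that Cdk1 adds to other proteins.

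At FGO 12 of the 38 were called higher as deposited and 0 lower, near the background of 25.8% and 0.158% of all genes. Rescaled, 0 were called in either direction, beside 1.68% and 0.940%. Ccnd3 stood at 19.1 FPKM in KO and 4.89 in WT, and Ccne1, a cyclin of Cdk2, at 16.6 in KO and 4.58 in WT. Plk1 stood at 176 in KO and 59.7 in WT. Cks2, which the first meiotic division of the mouse needs, stood at 38.5 in KO and 44.6 in WT, one of 2 list genes with a lower KO value as deposited. In the WT step from GO to FGO the list held 2 calls higher and 4 lower as deposited, beside 6.50% and 9.22% of all genes, and 2 and 4 rescaled, beside 5.78% and 8.33%. With equal column totals it held 0 and 8, beside 15.6% of all genes called in either direction. The share by direction was not computed on that scale, where the median gene itself stepped by -0.15. Those lower as deposited were Cdkn1c (2.01 FPKM at FGO, 8.72 at GO), Ccne1 (4.58, 13.4), Prkacb (2.68, 7.09) and Ccne2 (27.0, 56.5). Ccne1 and Ccne2, both cyclins of Cdk2, thus fell in WT in the step in which Wee1 did. In the WT step from NGO to GO, 25 of 38 were called higher and 0 lower as deposited, beside 54.8% and 0.129% of all genes, and 1 and 2 rescaled, beside 6.06% and 3.27%. Ccne2 rose beyond the median gene (56.5 FPKM at GO, 9.51 at NGO), while Ccnd3 (10.4, 10.8) and Ppp2r2a (8.65, 8.65) stood level as deposited, and Ppp2r1a stood at 54.6 and 42.7.

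Wee1, Cdk1 and the cyclins are also expressed in dividing somatic cells, so follicle cell markers were summed. The 12 granulosa markers summed to 4.71, 14.7 and 80.0 FPKM in KO and to 2.80, 17.7 and 36.9 FPKM in WT, and 9 stood at 1 FPKM or more in KO FGO against 6 in WT FGO. Of the 12, 10 stood higher in KO FGO than in WT FGO as deposited, the exceptions being Foxl2 and Inhba. Among all compared genes 95.4% did so. The rescaling factor of KO FGO was 1.73 times that of WT FGO, and the marker values here are not rescaled. Esr2 gave 37.3 FPKM in KO FGO and 21.3 in WT FGO, Cyp19a1 10.4 and 6.16, Inha 9.32 and 1.17, Gja1 6.96 and 0.965, and Hsd17b1 3.71 and 0.845. Amh and Foxl2 were near 0, at 0.282 and 0 FPKM in KO FGO and at 0.0206 and 0.0130 in WT FGO. The part of granulosa cells in the FGO values was not tested. Theca and stroma markers summed to at most 1.80 FPKM in KO and 4.49 in WT. Those of immune, endothelial and blood cells summed to at most 16.6 in KO and 9.56 in WT, both at FGO. Most of that was Pecam1, at 14.6 FPKM in KO FGO and 8.46 in WT FGO, followed by Cd68 at 1.95 and 1.07. Ptprc stood at 0.0071 and 0.0236, and Adgre1, Cdh5, Hba-a1 and Hbb-bs at 0 in both. The 6 proliferation markers, which oocytes also express, summed to 95.4, 270 and 718 FPKM in KO and to 102, 242 and 428 in WT.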

How the data were processed

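Polyadenylated RNA of 10 oocytes per sample, with 100 pg of spike-in, was made into Smart-seq2 libraries and read as 150 bp pairs, per the labels. The authors deposited FPKM values adjusted to the spike-in, per the file name; formula and annotation were not given in the sources used here. Tools named in the submitters' processing notes are Trim Galore 0.6.7, HISAT2 2.2.1, Cufflinks 2.2.1 and mm10. The table held 25912 lines and 6 value columns, 1 per genotype and stage. Left out were 2 lines with an error mark, and for 333 symbols on several lines the one of largest mean was kept. Depth per sample is unknown.

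Differences of log2(FPKM + 1) were called at 1 or more among genes averaging 1 FPKM or more. Rescaling used the median, over genes, of a column's ratio to the genes' geometric means (or, as an alternative, equal column totals). With 1 column per group, the test of replicated samples could not be run. Alternatives were a pseudocount of 0.1, both rescalings, summed lines, no filter and a minimum of 5 FPKM. The steps were tested on simulated data. Positions came from GENCODE M21, copies from blastn 2.17.0 (at least 85% identity over at least 150 nt and 20% of the transcript), promoters from RefSeq.

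The 10 genes and the lists were chosen with earlier results of these data known. Beside them the text names, by a rule, the 4 list genes of largest rescaled difference with at least 5 FPKM. They were taken per comparison of KO with WT and per WT step. The 3 nearest profiles of 4 genes were named by rule too. Paqr4, the granulosa markers and the immune, endothelial and blood markers were named after their values were seen. Software was Python 3.11.15, numpy 2.4.6 and pandas 2.3.3.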

Additional observations from a re-analysis of the deposited data

Results flagged for a closer look

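Ccnb1 was picked out because its KO to WT difference had opposite directions at 2 stages on each scale tried. Rescaled it was -0.29 at NGO and 0.23 at FGO, and as deposited it was -0.46 and 1.02. The median gene also turned direction as deposited, from -0.11 to 0.72, while rescaled it stood at 0.01 and 0.02. How many of all genes meet this rule was not counted. With 1 column per group the change between the stages was not tested, and the pseudogene copies named above leave the level of this gene uncertain.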

How the results depend on the processing

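No paired analysis was possible because the values come as 1 column per genotype and stage, so the replicate numbers of the labels have no values of their own, and no sample could be left out. Counts of called genes of the set depended on the scale. With median-ratio scaling and with equal column totals alike, the number lower in KO at GO was 0 in place of 1, the number higher in KO at FGO 1 in place of 3, and the number rising from NGO to GO was 2 in place of 8 in KO and 1 in place of 7 in WT. From GO to FGO in KO it was 1 in place of 7, and with equal totals 1 gene in place of 0 was lower, Wee1, which fell by 1.13 on the log2 scale. The KO to WT difference grew by 1 or more from GO to FGO in 2 genes as deposited, in 4 with a pseudocount of 0.1 and in 0 on either rescaled scale. The median of this change over all compared genes was 0.80 as deposited. The share of all genes past 1 was not computed, so the counts of 2 and 4 have no background. The cause of this dependence on scale was not tested.

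The step from NGO to GO turned sign under scaling in 4 genes called as deposited. With median-ratio scaling and equal totals it was -0.32 and -0.32 for Cdc25a, -0.14 and -0.13 for Cdc25b and -0.045 and -0.042 for Cdc25c in KO, and -0.10 and -0.069 for Wee2 in WT. The kinase to phosphatase ratio of KO over WT without Cdc25a, an alternative added after seeing the data, was 0.882 at NGO in place of 1.10 and 1.17 at GO in place of 2.21.

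The share of all genes past 2-fold in either direction moved too. For KO against WT the shares were 0.356% (NGO), 2.98% (GO) and 26.0% (FGO). A pseudocount of 0.1 gave 2.69% at NGO and 6.63% at GO, and no filter gave 0.151%, 1.25% and 10.7%. At FGO median-ratio scaling gave 2.62% and equal totals 2.83%. For the step from NGO to GO it was 57.7% in KO and 54.9% in WT, with median-ratio scaling 7.96% and 9.34%, with equal totals 8.20% and 9.66% and with no filter 23.3% and 22.3%. For the step from GO to FGO it was 39.5% in KO, with median-ratio scaling 10.1%, with equal totals 10.9% and with no filter 17.1%, and 15.7% in WT, with no filter 6.88%. A tally took in 90 single differences, those of the 10 genes and those by which list genes were named. Median-ratio scaling left 63 on their side of 2-fold, took 20 under it, 3 past it and turned the sign of 4 called ones. For equal totals these numbers were 62, 19, 5 and 4. The 63 and the 62 include differences under 2-fold that turned sign. One was Cdk1 in KO against WT at FGO, at 0.53 as deposited and at -0.15 and -0.05 on the 2 scales. With a pseudocount of 0.1, 86 kept their direction and side of 2-fold and 4 passed it, and summing lines of a symbol moved 0.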
